A study of Mus musculus with 24 samples.

Results

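The circadian clock genes described here are 10 transcripts of the molecular clock and its direct output, Per1, Per2, Per3, Dbp, Nr1d1, Nr1d2, Arntl, Ciart, Tef and Hlf, taken as a list of known clock genes and matched by gene identifier. All 10 passed the filter on low counts, out of 22502 genes tested and 54232 listed. RNA from the whole cerebellum of 24 mice aged 6 weeks was sequenced, 1 library per mouse, and the deposited values are counts of fragments per gene, 62163600 to 88430180 per library with a median of 74852158.5. The mice came from a study of spinocerebellar ataxia type 1 (SCA1), a polyglutamine disease, in which the phosphorylation site S776 of ATXN1 was abolished on the expanded allele, on the normal allele or on both.

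Wild-type mice (WT, n = 8) carried normal mouse Atxn1 alleles. SCA1 mice (Atxn1 154Q/2Q, n = 4) carried an expanded repeat knocked into 1 allele. SCA1 S776A mice (Atxn1 154Q[S776A]/2Q, n = 4) carried S776A on the expanded allele, S776A double mice (Atxn1 154Q[S776A]/2Q[S776A], n = 4) on both alleles, and WT S776A homozygous mice (Atxn1 2Q[S776A]/2Q[S776A], n = 4) had S776A on both normal alleles. All of these are germline changes of the endogenous gene, present in every cell, and all strains were kept on a C57BL/6J background under a cycle of 12 hours of light and 12 hours of darkness. The labels give no hour of collection, sex or litter for any mouse, and no day of dissection. Mice are named here by genotype and number.

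In a mammalian cell the clock is a delayed feedback loop. The activators BMAL1 (encoded by Arntl) and CLOCK bind E-box sequences and drive the Per, Nr1d1, Nr1d2, Ciart, Dbp, Tef and Hlf genes. PER proteins and CHRONO (encoded by Ciart) then repress the activators, the REV-ERB proteins (encoded by Nr1d1 and Nr1d2) repress Arntl, and the PAR bZIP factors DBP, TEF and HLF carry the rhythm to D-box sequences of output genes, so that in mouse tissues the Arntl transcript peaks at about the opposite time of day to Dbp and the Per transcripts. The cerebellum holds such a clock.

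Promoter sequence was available for 9 of the 10 genes, as 12 windows of 300 bases from RefSeq on GRCm38.p6, each from 250 bases before to 50 bases after an annotated start. The windows below were chosen because each carries a sequence through which a known clock factor acts, and because the genes they belong to are those whose levels follow Dbp most closely, oppose it or differ between batches. Capitals mark the motif and all sequences run 5′ to 3′ on the strand of the gene.
Ciart, chr3:95882179-95882478, minus strand: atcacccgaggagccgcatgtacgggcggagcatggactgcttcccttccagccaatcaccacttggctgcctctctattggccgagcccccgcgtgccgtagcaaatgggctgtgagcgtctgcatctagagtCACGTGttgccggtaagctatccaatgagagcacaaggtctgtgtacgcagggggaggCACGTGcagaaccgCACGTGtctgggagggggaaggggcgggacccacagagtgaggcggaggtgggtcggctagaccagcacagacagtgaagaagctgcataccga
Tef, chr15:81802423-81802722, plus strand: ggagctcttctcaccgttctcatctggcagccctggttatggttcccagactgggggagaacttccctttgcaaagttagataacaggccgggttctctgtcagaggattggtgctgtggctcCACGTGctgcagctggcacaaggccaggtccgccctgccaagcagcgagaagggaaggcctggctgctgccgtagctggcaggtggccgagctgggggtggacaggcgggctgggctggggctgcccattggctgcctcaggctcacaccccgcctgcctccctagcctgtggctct
Per3, chr4:151044616-151044915, minus strand: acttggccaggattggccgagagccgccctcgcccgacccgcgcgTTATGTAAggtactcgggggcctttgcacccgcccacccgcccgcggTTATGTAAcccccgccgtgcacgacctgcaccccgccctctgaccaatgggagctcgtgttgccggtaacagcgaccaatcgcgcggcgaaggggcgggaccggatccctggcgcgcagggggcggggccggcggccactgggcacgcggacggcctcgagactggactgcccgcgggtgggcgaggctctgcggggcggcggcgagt
Arntl, chr7:113207261-113207560, plus strand: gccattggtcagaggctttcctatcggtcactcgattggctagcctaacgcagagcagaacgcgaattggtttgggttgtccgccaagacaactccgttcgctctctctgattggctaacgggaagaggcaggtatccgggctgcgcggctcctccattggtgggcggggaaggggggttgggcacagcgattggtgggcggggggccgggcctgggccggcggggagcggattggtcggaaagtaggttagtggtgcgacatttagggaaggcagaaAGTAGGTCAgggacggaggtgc

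The Ciart window holds 3 copies of the E-box CACGTG, at positions -116, -58 and -44 from the start. The E-box was found on either strand in 7.15% of the 32851 windows of all genes, and among the clock genes also in both windows of Tef (positions -127 and -138) and in 1 of the 2 windows of Per1 (position -166). The Per3 window holds 2 copies of a D-box (TTATGTAA, searched together with TTACGTAA), at positions -205 and -158, against 1.06% of all windows. The second Arntl window holds a RORE, the element read by the REV-ERB receptors (ANTAGGTCA or ANTGGGTCA), at position 29 after the start, against 1.45% of all windows. Nr1d1 had 1 copy of the related E-box CACGTT, present in 4.68% of all windows, and Hlf a CRE (TGACGTCA), present in 1.79%. None of these letters occurred in the windows of Dbp and Nr1d2. The words overlap each other in none of the windows shown, and a match is a description of the sequence, not of binding.

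Per length of exon, Tef was the most abundant clock transcript, with a median of 52.1 RPKM (fragments per kilobase of exon, scaled to library size) over the 24 mice. It was followed by Nr1d2 (47.4 RPKM), Nr1d1 (40.6), Dbp (32.2), Hlf (20.2), Per1 (17.3), Ciart (8.54), Per3 (6.8), Per2 (6.3) and Arntl (4.77). Neighbours in this order were not well separated: Tef exceeded Nr1d2 in 18 of 24 mice, and Per3 exceeded Per2 in 12 of 24. Clearer steps were those from Nr1d1 to Dbp and from Per1 to Ciart, each in the same direction in 23 mice. The lengths include exon bases shared with genes on the opposite strand, 18% for Dbp and 8.5% for Nr1d1. Fragments on shared bases are not counted, so Dbp is understated more than Nr1d1, and the size of that step is uncertain. All further levels are CPM, the counts of a gene scaled to a common library size with factors from the trimmed mean of M-values (TMM), which can be compared between mice for 1 gene but not between genes.

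Within the cerebellum as a whole, a smaller number of cells of a type and less RNA per cell cannot be told apart. Markers of granule cells, Purkinje cells, Bergmann glia and oligodendrocytes were present in every library, none of them at 0 in all libraries. Choroid plexus markers, led by Ttr, summed to between 20.8 and 5196 CPM, so the choroid plexus signal differed widely between mice. The sequencing batch is not in the labels and was inferred from 4 library shares (fragments that were unmapped, mapped to many places, outside genes or ambiguous), so that no gene entered. The split gave 16 mice in batch 1, with WT mice 1 to 4 and all SCA1, SCA1 S776A and S776A double mice, and 8 in batch 2, with WT mice 5 to 8 and the WT S776A homozygous mice. Fragments outside annotated genes made up 9.52% to 12.0% of a library in batch 1 and 5.23% to 6.31% in batch 2. Atxn1 itself, the edited gene, had 50.8 ± 2.22 CPM (SD, n = 4) in WT mice of batch 1 and 58.8 ± 3.65 CPM (SD, n = 4) in SCA1 mice (log2 fold change 0.21, SE 0.08, edgeR BH-adjusted p = 0.453). Against WT of the same batch its log2 fold change was 0.27 in SCA1 S776A mice (edgeR BH-adjusted p = 0.87) and 0.29 in S776A double mice (edgeR BH-adjusted p = 0.398). In WT S776A homozygous mice it was 0.02 (edgeR BH-adjusted p = 0.947). A count per gene does not separate the reads of the alleles, so the edit itself was not checked.

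The clock genes first showed that 3 mice stood apart from the other 21: SCA1 mouse 4 and S776A double mice 2 and 3, all of batch 1. Dbp, the activator whose transcript has one of the widest daily swings, was at 36.1 CPM in SCA1 mouse 4 and at 33.4 and 37.7 CPM in S776A double mice 2 and 3. The other 13 mice of batch 1 had 64.3 to 114 CPM and the 8 mice of batch 2 had 84.5 to 132 CPM. Arntl, the activator of the opposite phase, was at 57.2, 61.5 and 55.2 CPM in the same 3 mice, against 30.8 to 44.8 CPM in the other 13 and 31.4 to 39.8 CPM in batch 2. These 3 mice were therefore the lowest for Dbp and the highest for Arntl of all 24.

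The log2 ratio of Dbp to Arntl counts was -0.665 in SCA1 mouse 4 and -0.882 and -0.551 in S776A double mice 2 and 3. It was between 0.815 and 1.73 in the other 13 mice of batch 1 and between 1.15 and 2.07 in batch 2, so the sign of the ratio separated the 3 mice from all others.

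The repressors and the PAR bZIP genes sat with Dbp. Per2 was at 14.2, 12.7 and 14.8 CPM in the 3 mice and at 28.6 to 86.2 CPM in the other 13. Ciart was at 9.14, 8.58 and 8.5 CPM against 15.3 to 27.2 CPM. Tef was at 231, 241 and 242 CPM against 333 to 469 CPM. For each of these 3 genes the 3 mice were also below every mouse of batch 2.

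The remaining genes gave the same picture inside batch 1. Nr1d2 was at 163 to 171 CPM in the 3 mice and at 239 to 291 CPM in the other 13. Hlf was at 86.2 to 90 CPM against 117 to 163 CPM. Per3 was at 41.8 to 45.1 CPM against 65.1 to 94.9 CPM, and here batch 2, at 33.1 to 51.2 CPM, covered the range of the 3 mice. Nr1d1 (70.6 to 79.5 CPM against 87.3 to 150 CPM) and Per1 (59.3 to 70 CPM against 83.5 to 141 CPM) were also lowest in the 3 mice within batch 1, while 1 or more mice of batch 2 had less Per1.

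**Figure D1:**
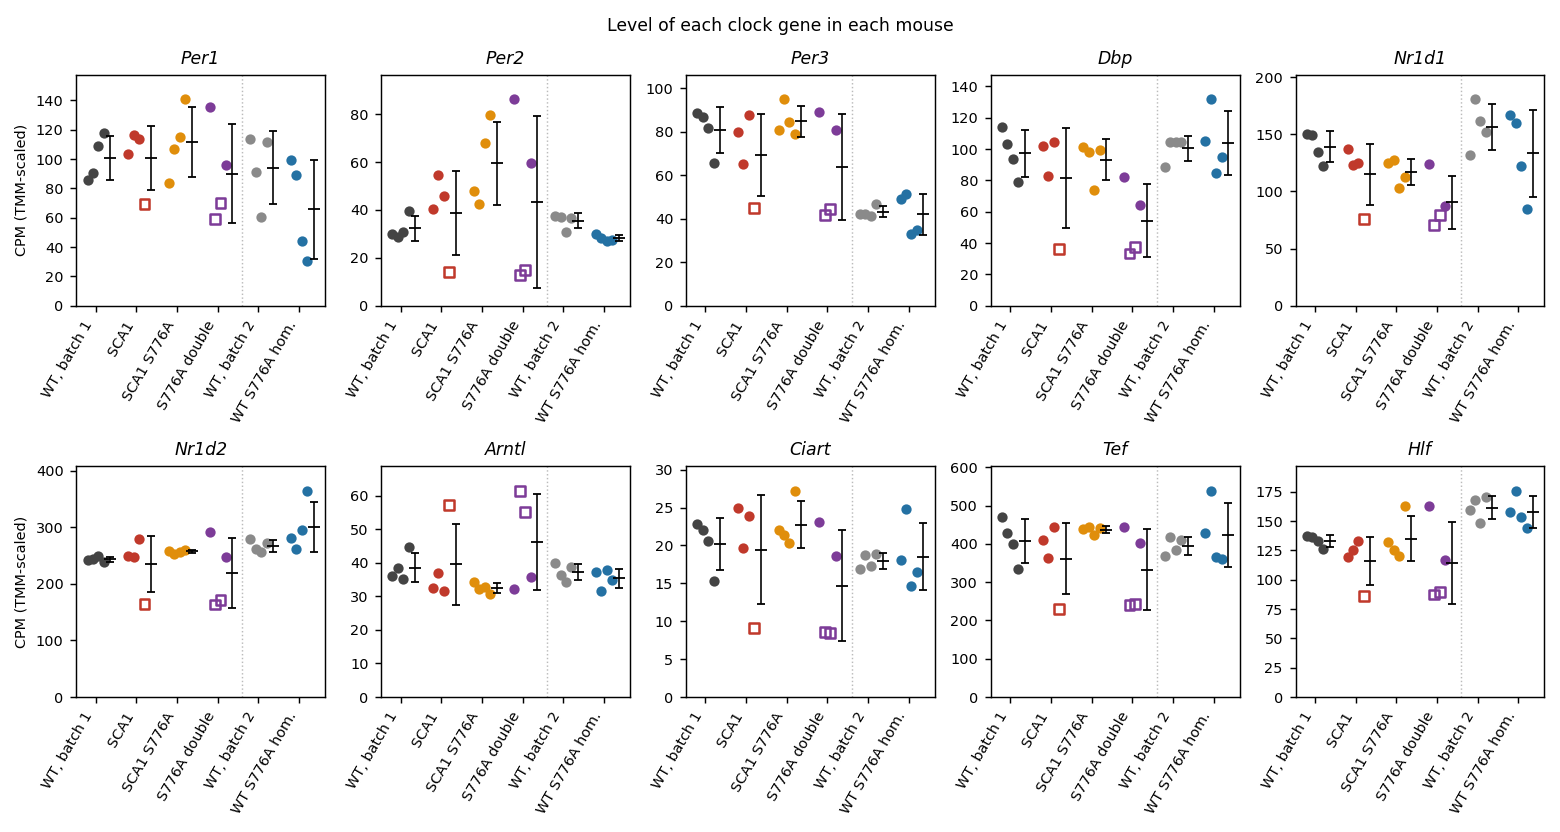
Level of each clock gene in each mouse, in TMM-scaled CPM on an axis from 0, by genotype and batch. Filled points are mice, open squares are SCA1 mouse 4 and S776A double mice 2 and 3, and the bars beside the points give the group mean ± SD of all 4 mice. The open squares lie below the other mice of batch 1 in 9 panels and above them for Arntl.

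The 3 mice were picked out by the levels of these genes, so their distance from the others is a description and carries no test. They belong to 2 genotypes, and in each of the 2 genotypes other mice did not share the pattern. Their fragments on genes numbered 70835290, 73774038 and 73953705, inside the range of batch 1. Their mitochondrial shares were 3.97%, 3.68% and 3.57% of a batch that spans 3.01% to 3.97%, so SCA1 mouse 4 had the highest share of the batch. Their choroid plexus markers summed to 5200, 20.8 and 3090 CPM. The markers of pineal gland and hindbrain, led by Slc6a5, summed to 25.1, 28.6 and 30.6 CPM in the 3 mice against 33 to 49.7 CPM in the other 13, and the part of this in the clock gene levels was not tested. The glucocorticoid-responsive gene Fkbp5, named after its values were seen, was at 7.71, 6.83 and 6.86 CPM in the 3 mice. In the other 13 it was at 8.06 to 28.8 CPM. The 8 glucocorticoid-responsive genes together summed to 253 to 292 CPM in the 3 mice, inside the 230 to 429 CPM of the other 13. Within this list Zbtb16 was also lower in the 3 mice, at 2.1 to 2.82 CPM against 4.01 to 29.2 CPM. The remaining genes of the list overlapped with the other 13. The part of these genes was not tested either. Whether the mice were collected at different times of day was not tested, since no time is given.

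Spread between mice was measured as the SD of log2 CPM around the mean of each genotype within its batch, with 18 degrees of freedom. Over all 22502 genes the median SD was 0.192, and all 10 clock genes were above it. Per2 varied most, with an SD of 0.703 that exceeds 97.6% of genes, followed by Per1 (0.482), Ciart (0.452), Dbp (0.427), Per3 (0.334), Nr1d1 (0.301), Tef (0.295), Arntl (0.265), Nr1d2 (0.233) and Hlf (0.23). Without the 3 mice 6 of the 10 were above the median of all genes, which was then 0.19. Per1 then varied most, with an SD of 0.456, and Arntl (0.115) and Nr1d2 (0.111) exceeded only 26.9% and 25.2% of genes.

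Whether the genes rose and fell together from mouse to mouse was then asked on the same deviations, so that differences between genotypes and batches do not enter. Because the 3 mice form a cluster of their own, the values over the other 21 mice are given first. Of the 36 pairs of genes without Arntl, 26 had a positive Pearson's r over these 21 mice, with a range of -0.561 to 0.896 and a median of 0.499. Of the 9 pairs with Arntl, 7 were negative, down to -0.769 for Arntl with Ciart. The pairs fell into a tight core and a loose rest. Ciart and Tef (r = 0.896), Dbp and Ciart (0.879), Dbp and Tef (0.87) and Per3 and Tef (0.87) moved most closely together, and Arntl ran against Dbp (-0.698) and Tef (-0.699). Per2 and Nr1d2 lay outside this core, with r values with Dbp of -0.243 and -0.128. Per2 had its highest r values with Hlf (0.509) and Per1 (0.507). Nr1d1 and Nr1d2, which encode sister receptors, had an r of -0.561 but a Spearman's rho of only -0.258. WT S776A homozygous mouse 4 had both the lowest deviation of Nr1d1 (-0.608) and the highest of Nr1d2 (0.290), so this r leans on that mouse.

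Over all 24 mice all 36 pairs were positive, from 0.29 to 0.972 with a median of 0.763, and all 9 pairs with Arntl were negative, from -0.951 to -0.447. These values join the 3 mice and the other 21, which lie in separate ranges. The r of Dbp with Per2 was 0.761 with the 3 mice and -0.243 without them, and that of Dbp with Nr1d2 0.761 and -0.128. The 45 pairs share libraries and scaling, and all describe 1 tissue.

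**Figure D2:**
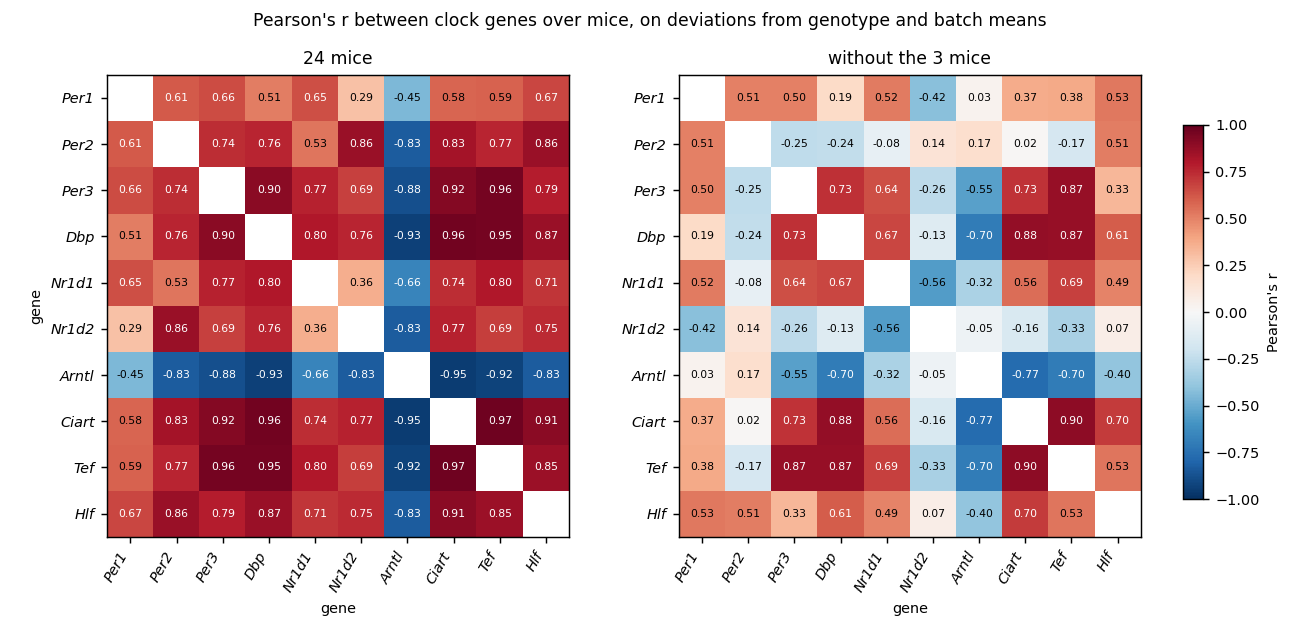
Pearson's r for each of the 45 pairs of clock genes over mice, on deviations of log2 CPM from the mean of genotype and batch, with all 24 mice on the left and without the 3 mice on the right. Colour and number both give r. The row of Arntl is negative throughout on the left. On the right Per2 and Nr1d2 have r values of both signs, from -0.561 to 0.509. The block of Per3, Dbp, Ciart and Tef keeps r from 0.726 to 0.896 there.

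Dbp was used as the reference against which the other 9 clock genes were set, with permutation of the mice within genotype and batch (100000 resamples, two-sided). Over the 21 mice, Ciart had a Pearson's r of 0.879 (permutation p = 3e-05) and a Spearman's rho of 0.869 (permutation p = 5e-05), and leaving out the 2 mice farthest from the median of Dbp gave an r of 0.873. Tef had an r of 0.87 (permutation p = 3e-05), a rho of 0.838 (permutation p = 4e-05) and an r of 0.905 without those 2 mice. These 2 genes are the closest followers of Dbp among the 9.

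Per3 had an r of 0.727 (permutation p = 0.00303) and a rho of 0.613 (permutation p = 0.0142). Arntl had an r of -0.698 (permutation p = 0.00435) and a rho of -0.635 (permutation p = 0.00838). Nr1d1 had an r of 0.666 (permutation p = 0.0101) and a rho of 0.709 (permutation p = 0.00156). Without the 2 farthest mice the r values of these 3 genes were 0.757, -0.685 and 0.644, so each kept its sign and most of its size.

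Hlf had an r of 0.609 (permutation p = 0.0187), a rho of 0.656 (permutation p = 0.00845) and an r of 0.551 without the 2 mice. Per1 had an r of 0.194 (permutation p = 0.58) and a rho of 0.0818 (permutation p = 0.776). Per2 had an r of -0.243 (permutation p = 0.388) and a rho of -0.219 (permutation p = 0.446), and Nr1d2 an r of -0.128 (permutation p = 0.72) and a rho of 0.126 (permutation p = 0.646). Without the 2 mice these 3 r values were 0.319, -0.0212 and -0.184. The p-values are those of 9 single relations, and the fit over all genes, with its adjusted p-values, is given below.

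Within batch 1, with its 16 mice, the r with Dbp was 0.966 for Ciart, 0.965 for Tef, -0.945 for Arntl and 0.796 for Per2. Within batch 2, which holds none of the 3 mice, it was 0.951 for Ciart, 0.937 for Tef, -0.762 for Arntl and 0.0346 for Per2 over 8 mice. Over the 8 WT mice alone it was 0.9 for Ciart, 0.958 for Tef, -0.73 for Arntl and -0.762 for Per2. Ciart, Tef and Arntl thus had the same sign of r with Dbp in each of the 3 sets, and Per2 did not.

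**Figure D3:**
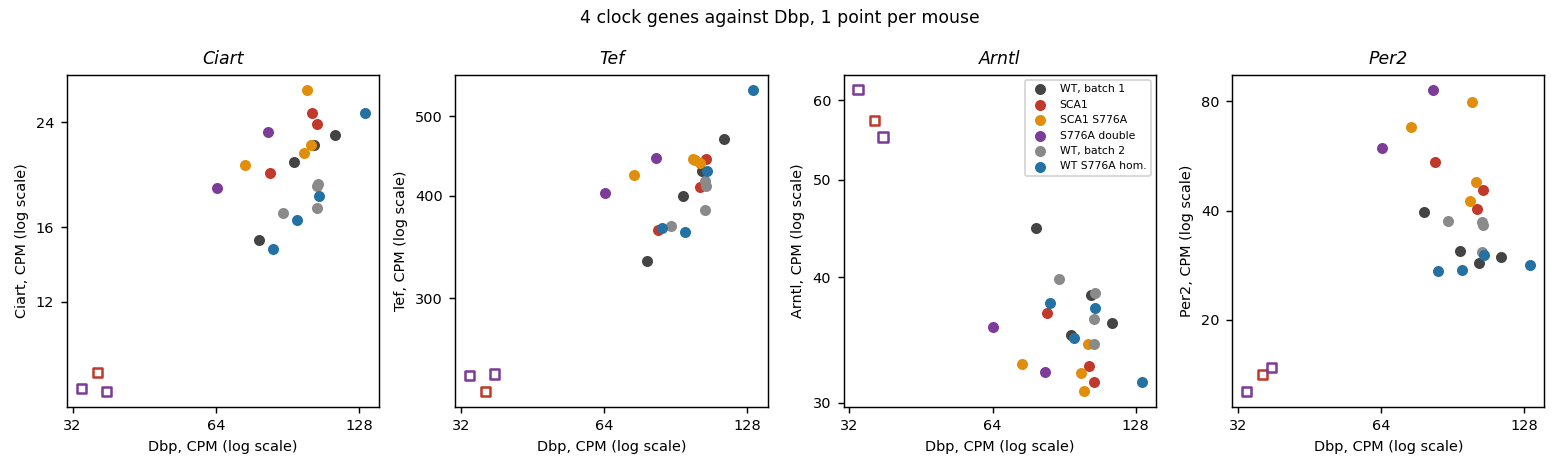
Ciart, Tef, Arntl and Per2 against Dbp, 1 point per mouse, in TMM-scaled CPM with logarithmic scales on both axes and colours by genotype and batch. Open squares are the 3 mice with Dbp at 33.4 to 37.7 CPM, which lie apart from all others in each panel. Among the filled points Ciart and Tef rise with Dbp and Arntl falls, while Per2 shows no such rise.

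The same relation was tested over all genes, as the slope of each gene on the log2 level of Dbp with 1 mean per genotype and batch. The slope was called where the quasi-likelihood F test of edgeR gave a Benjamini-Hochberg (BH) adjusted p under 0.01. Over the 24 mice 40 of 22501 genes were called (0.178%), and 6 of the 9 clock genes were among them. A slope of 1 means that a gene changes by the same factor as Dbp. Ciart had a slope of 1.02 (SE 0.0689, edgeR BH-adjusted p = 2.24e-09), close to the factor of Dbp itself. Tef had a slope of 0.66 (SE 0.0521, edgeR BH-adjusted p = 3.55e-08), Per3 of 0.7 (SE 0.0768, edgeR BH-adjusted p = 1.28e-05) and Arntl of -0.58 (SE 0.0538, edgeR BH-adjusted p = 6.72e-07). Hlf (slope 0.471) and Nr1d1 (0.563) were called too. Per2 had the steepest slope, 1.24, with an SE of 0.28 and an edgeR BH-adjusted p of 0.0409, and was not called.

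None of these calls was made without the 3 mice. Over the other 21 mice 0 of 23238 genes were called, and the lowest adjusted p among the clock genes was that of Ciart (slope 0.926, SE 0.129, edgeR BH-adjusted p = 0.01, above the threshold before rounding). The slopes of Tef (0.694), Per3 (0.688) and Hlf (0.434) were close to those with the 3 mice, that of Arntl was smaller in size (-0.342), and those of Per2 (-0.246) and Nr1d2 (-0.0649) were below 0.

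Of the 20 other clock genes, 3 had a called positive slope on Dbp over the 24 mice and 1 a called negative slope, against 0.178% of all genes, and 0 were called over the 21 mice. Those with a positive slope were Bhlhe41 (0.455) and Bhlhe40 (0.395), which encode the E-box repressors DEC2 and DEC1, and Wee1 (0.443), a cell cycle kinase gene under E-box control. Nfil3, whose protein competes with the PAR bZIP factors for D-boxes, had a slope of -0.458. Over the 21 mice the r with Dbp was 0.845 for Bhlhe41, 0.782 for Bhlhe40, -0.578 for Nfil3 and 0.381 for Wee1. Clock, the partner of Arntl, had an r of -0.68 over 24 mice and -0.793 over 21.

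Outside the 10 genes, the 8 with the highest r with Dbp over the 24 mice were Bhlhe41 (0.916), Mthfd1l (0.893), Maco1 (0.882), Bhlhe40 (0.859), Htr5a (0.857), Vcan (0.849), Adra1a (0.841) and Atp2b4 (0.84). The 8 with the most negative r were Tmem45a (-0.883), Vstm4 (-0.855), Leo1 (-0.847), Satl1 (-0.844), Sat1 (-0.836), Spon2 (-0.812), Lgr6 (-0.798) and Nfil3 (-0.794). Among them are a serotonin receptor gene (Htr5a), an adrenergic receptor gene (Adra1a), a plasma membrane calcium pump gene (Atp2b4), a mitochondrial folate enzyme gene (Mthfd1l), a matrix proteoglycan gene (Vcan) and the polyamine acetyltransferase gene Sat1. Ranked by the size of r over all genes tested, Ciart, Tef, Arntl, Bhlhe41 and Per3 took places 1 to 5. Of these 16 genes, Bhlhe41 had the highest rank over the 21 mice, at 21, and Vcan the lowest, at 14924 with an r of 0.186.

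The WT mice of the batches were compared because WT is the only genotype in both. Here and in the comparisons of genotypes a call also needs a log2 fold change of over 0.5 in either direction. Per3 was the 1 clock gene called. WT mice of batch 1 had 88.7, 86.9, 81.8 and 65.5 CPM of Per3 and WT mice of batch 2 had 42.4, 42.2, 41.2 and 47 CPM. No WT mouse of batch 1 came down to the level of the WT mice of batch 2. The means were 80.7 ± 10.6 CPM (SD, n = 4) and 43.2 ± 2.58 CPM (SD, n = 4), a log2 fold change of -0.90 (SE 0.23, edgeR BH-adjusted p = 0.00304). WT S776A homozygous mice, also of batch 2, had 49.1, 51.2, 33.1 and 35 CPM. In this comparison 17.6% of all genes were called, 14.5% of all genes as lower in batch 2, so 1 call among 10 genes is near the background. Unadjusted p-values under 0.05 were found for 1 of the 10 genes and 51.9% of all genes.

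Groups did not overlap for 3 of the 10 genes, Per3, Nr1d2 and Hlf, against 46.7% of all genes. Hlf was at 137, 137, 133 and 126 CPM in batch 1 and at 159, 168, 149 and 170 CPM in batch 2 (log2 fold change 0.28, SE 0.15, edgeR BH-adjusted p = 0.146). Nr1d2 had 242, 244, 248 and 239 CPM in batch 1 and 278, 261, 256 and 273 CPM in batch 2 (log2 fold change 0.13, edgeR BH-adjusted p = 0.497). Dbp (log2 fold change 0.05), Arntl (-0.05) and Tef (-0.05) were near 0, with intervals of -0.51 to 0.60, -0.40 to 0.30 and -0.43 to 0.34.

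Among the other clock genes, Timeless (log2 fold change -0.66, edgeR BH-adjusted p = 0.000634) was called lower in WT of batch 2 and Nfil3 (0.59, edgeR BH-adjusted p = 0.0056) higher. Of the temperature-responsive genes Cirbp (-0.79) was called lower, and Hspa8 (0.67) and Dnajb1 (0.53) higher. Of the glucocorticoid-responsive genes Cdkn1a (0.61) was called higher, and of the immediate early genes none was called and Fosb, at an edgeR BH-adjusted p of 0.0265, was the only 1 of 8 with an unadjusted p under 0.05. Cell type markers differed between the batches too. Of 6 oligodendrocyte markers 4 were called higher, where 17.6% of all genes were called and 14.5% were called lower. The granule cell marker Grin2c (-0.93) and the Purkinje cell marker Itpr1 (-0.73) were called lower. However, 4 of the 6 markers of each of these cell types had positive log2 fold changes. Their medians were 0.26 for granule cell markers and 0.215 for Purkinje cell markers. The part of these in the Per3 difference was not tested, and sequencing batch, cohort and day of collection cannot be told apart here.

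Each mutant genotype was then set against WT mice of its own batch, to ask whether the expanded allele or the loss of the S776 site changed the clock genes. In SCA1 mice 0 of the 10 genes were called and 0 had an unadjusted p under 0.05 in edgeR's test, against 0.173% and 8.25% of all genes. DESeq2 called 0 as well. Of the 10 genes 3 had positive and 7 negative log2 fold changes, with a median of -0.11 against 0.00 for all genes. Dbp was at 102, 83.1, 105 and 36.1 CPM in SCA1 mice and at 114, 103, 93.6 and 78.8 CPM in WT mice of batch 1. The first 3 SCA1 mice lay inside the WT range and the fourth far below it. The log2 fold change was -0.26 (SE 0.28, edgeR BH-adjusted p = 0.864), and it was -0.02 (SE 0.15) without SCA1 mouse 4 and the other mice that stand apart.

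Per2 in SCA1 mice was at 40.6, 54.6, 45.7 and 14.2 CPM, against 29.9, 28.6, 31 and 39.8 CPM in WT mice. The first 3 were above all WT mice and the fourth below all of them. With all mice the log2 fold change was 0.26 (SE 0.47, edgeR BH-adjusted p = 0.919), and without the 3 mice it was 0.54 (SE 0.18, edgeR BH-adjusted p = 0.449). The latter leaves out SCA1 mouse 4, which had the lowest Per2 of the genotype.

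In SCA1 S776A mice, none of which stood apart, 0 clock genes were called by edgeR and 0 had an unadjusted p under 0.05, against 0.0133% and 3.93% of all genes. DESeq2 called 0. Groups did not overlap for Per2, Nr1d2 and Arntl, 3 of 10, against 4.39% of all genes. Per2 was at 48, 42.5, 68.1 and 79.6 CPM, above the highest WT mouse of the batch at 39.8 CPM. The log2 fold change was 0.88 (SE 0.47, edgeR BH-adjusted p = 1, 95% interval -0.04 to 1.80).

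Arntl in SCA1 S776A mice was at 34.3, 32.2, 32.8 and 30.8 CPM, below the lowest WT mouse at 35 CPM, with WT mice at 36, 38.4, 35 and 44.8 CPM (log2 fold change -0.25, SE 0.18, edgeR BH-adjusted p = 1). Nr1d2 was at 259, 253, 257 and 260 CPM against 242, 244, 248 and 239 CPM (log2 fold change 0.08, SE 0.15, edgeR BH-adjusted p = 1). The SEs come from a spread estimated over all 24 mice, the 3 that stand apart included. Without the latter, the SE for Per2 fell to 0.17 with the log2 fold change at 0.88 (edgeR BH-adjusted p = 0.142), and that for Arntl to 0.08 at -0.25 (edgeR BH-adjusted p = 0.894). Neither was called.

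S776A double mice held 2 of the 3 mice that stand apart, and here most clock genes had negative log2 fold changes, 8 of 10 with a median of -0.26 against 0.00 for all genes. Again 0 were called by edgeR and 0 by DESeq2, with 0.0267% of all genes called, and 2 had an unadjusted p under 0.05, against 6.93% of all genes. Dbp was at 82.3, 33.4, 37.7 and 64.3 CPM in S776A double mice. Mouse 1 was inside the WT range of 78.8 to 114 CPM, and mouse 4 was below it although it was not among the 3. The log2 fold change was -0.84 (SE 0.29, edgeR BH-adjusted p = 0.566) and -0.42 (SE 0.18, edgeR BH-adjusted p = 0.563) without the 3 mice.

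Nr1d1 was at 124, 70.6, 79.5 and 87.3 CPM against 150, 150, 135 and 122 CPM in WT mice. Mouse 1 lay in the WT range and the others below. The log2 fold change was -0.62 (SE 0.20, edgeR BH-adjusted p = 0.533) and -0.41 (SE 0.21, BH-adjusted p = 0.674) without the 3 mice. Exons of Nr1d1 share 263 bases, 8.5% of their length, with Thra on the opposite strand, and those of Dbp 539 bases, 18%, with Sphk2. With the counts of both strands summed, fragments from these shared bases count for both genes of a pair, so those of Thra and Sphk2 enter too. The log2 fold change of Nr1d1 was then -0.36 and that of Dbp -0.77. Over the 11 alternative settings, edgeR and DESeq2 fits among them, the BH-adjusted p ran from 0.0188 to 0.827 for Nr1d1. For Dbp it ran from 0.0401 to 0.827, so neither gene was called under any of them.

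Per2 in S776A double mice was at 86.2, 12.7, 14.8 and 59.6 CPM, so 2 mice were above all WT mice and the other 2 below all of them. The log2 fold change was 0.42 (SE 0.47, edgeR BH-adjusted p = 0.851) with all mice and 1.16 (SE 0.20, edgeR BH-adjusted p = 0.0549) without the 3. The latter rests on mice 1 and 4 alone, after the 2 mice with the lowest Per2 of the genotype were left out. Arntl was at 32.2, 61.5, 55.2 and 35.7 CPM, and its log2 fold change was 0.26 with all mice and -0.20 without the 3. The direction of Arntl in this genotype thus changed when S776A double mice 2 and 3 were left out.

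Seen across batch 1, the mice outside the 3 had Per2 at 28.6 to 39.8 CPM in WT, 40.6 to 54.6 CPM in SCA1, 42.5 to 79.6 CPM in SCA1 S776A and 59.6 and 86.2 CPM in S776A double mice. These 3 comparisons share the 4 WT mice of batch 1. The 3 mice left out were picked by the levels of the clock genes, Per2 among them. They had Per2 at 12.7 to 14.8 CPM, below all WT mice. The separation in SCA1 and S776A double mice therefore depends on leaving them out and carries no test. No SCA1 S776A mouse was left out. Dbp, Ciart and Tef of the mice outside the 3 overlapped with WT in each genotype. Per1 and Per3 gave no such separation, with log2 fold changes without the 3 mice between 0.14 and 0.19 for Per1 and between -0.06 and 0.07 for Per3. Arntl and Nr1d2 did not overlap with WT in SCA1 S776A mice but did in the other genotypes. Without the 3 mice the log2 fold change of Arntl was -0.20 in SCA1, -0.25 in SCA1 S776A and -0.20 in S776A double mice, none of them called. Fkbp5, which like Per2 responds to glucocorticoids, was at 8.06 to 16.1 CPM in WT, 8.45 to 16.3 CPM in SCA1, 10.4 to 27.1 CPM in SCA1 S776A and 28.8 and 21.9 CPM in S776A double mice outside the 3, and its part in the Per2 levels was not tested.

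**Figure D4:**
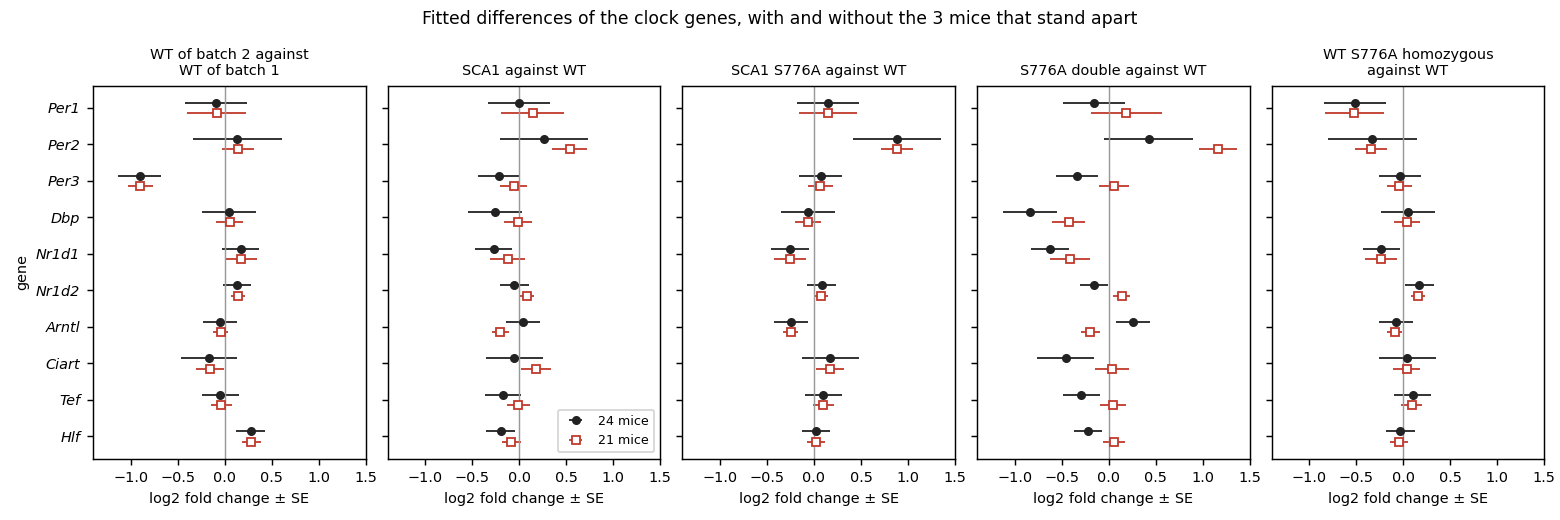
Log2 fold change ± SE of each clock gene in the edgeR fit with genotype and batch, for WT of batch 2 against WT of batch 1 and for each genotype against WT of its batch. Black circles are fits of all 24 mice and red squares fits without the 3 mice that stand apart. Per3 between the batches (-0.90 and -0.89) is the only called gene in either fit, and for Per2 in S776A double mice the values were 0.42 and 1.16. The latter leaves out the mice with the lowest Per2 of that genotype.

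WT S776A homozygous mice, which carry no expanded repeat, were set against WT mice of batch 2, and none of the 3 mice that stand apart is in this batch. In edgeR 0 of the 10 clock genes and 0% of all genes were called, and 0 clock genes had an unadjusted p under 0.05, against 9.98% of all genes. DESeq2 called 0 clock genes. Dbp was at 105, 132, 84.5 and 94.7 CPM against 88.4, 104, 104 and 105 CPM in WT mice, with a log2 fold change of 0.05 (SE 0.28, edgeR BH-adjusted p = 0.959). Per2 was the only gene without overlap, 1 of 10 against 2.65% of all genes. It was at 30.1, 28.3, 27.2 and 27.4 CPM against 37.6, 37.2, 30.7 and 36.6 CPM in WT mice (log2 fold change -0.33, SE 0.47, edgeR BH-adjusted p = 0.801).

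Per1 fell into a wide range in these mice, at 99.5, 89.4, 44.1 and 30.5 CPM, against 114, 91, 60.3 and 112 CPM in WT mice of batch 2 (log2 fold change -0.51, SE 0.33, edgeR BH-adjusted p = 0.557). WT S776A homozygous mice 3 and 4 had the lowest Per1 of all 24 mice, with Dbp at 84.5 and 94.7 CPM and Arntl at 37.7 and 34.8 CPM, inside or near the ranges of the WT mice. Mouse 4 also had the lowest Nr1d1 of the batch, 84.6 CPM, the highest Nr1d2 of all mice, 365 CPM, and the highest mitochondrial share, 6.73%. Per1 can also be induced by neuronal activity, and the immediate early genes Fos, Dusp1 and others summed to 165, 142, 119 and 125 CPM in the WT S776A homozygous mice and to 192, 224, 319 and 149 CPM in WT mice of the batch. All 8 immediate early genes had negative log2 fold changes there, with a median of -0.97, and 0 were called (4 with an unadjusted p under 0.05). Mouse 2, with the lowest Fos (5.24 CPM), had 89.4 CPM of Per1, and the part of these genes in the Per1 levels was not tested.

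The mutant genotypes of batch 1 were also compared with each other, to ask whether the S776A change on 1 or both alleles shifts the clock genes of SCA1 mice. In each of the 3 comparisons 0 of the 10 genes were called by edgeR and by DESeq2, against 0.00444% of all genes for SCA1 S776A against SCA1 and 0% for the other two. Unadjusted p-values under 0.05 were given for 0, 0 and 2 genes, the latter for S776A double against SCA1 S776A, where the shares of all genes were 4.35%, 3.64% and 2.96% in the same order. These were Dbp, with a log2 fold change of -0.78 (SE 0.29, edgeR BH-adjusted p = 1), and Arntl, with 0.50 (SE 0.18, edgeR BH-adjusted p = 1). Without the 3 mice the values were -0.36 (SE 0.18) and 0.05 (SE 0.10). For Dbp in SCA1 S776A against SCA1 the log2 fold change was 0.20 with all mice and -0.05 without the 3, so its sign depended on SCA1 mouse 4.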

How the data were processed

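Per the labels, Trimmomatic 0.36 and STAR 2.7.2d on GRCm38.p6 made the deposited counts of fragments per gene, which are whole numbers, raw and not corrected for batch. The unstranded counts were used, since strand totals differed by a ratio of 0.9995 to 1.0035. Of 54232 identifiers 54165 matched GENCODE M21 in unversioned form, and 1 further feature and 1 gene of the wider clock list are not reported here. Replicates are separate mice, and the chi-square between mice of 1 group, per degree of freedom, was 8.72 or more. Batches were inferred by k-means (k of 2, 50 starts, mean silhouette 0.634).

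Counts were scaled by TMM (factors 0.944 to 1.056). Genes were tested with edgeR 4.0.16 in R 4.3.3 (glmQLFit with robust estimation, filterByExpr, terms for genotype and batch, all 24 mice) with Benjamini-Hochberg adjustment over 22502 genes, and genes were called at an adjusted p under 0.01 with a log2 fold change beyond 0.5 in size. Log2 CPM used a prior count of 2. The fits were tested on simulated data. Alternatives were RLE scaling, other filters on low counts, no batch term, 1 batch only, only the groups compared, DESeq2 1.42.0, ComBat-seq (sva 3.50.0) then DESeq2, stranded counts, other thresholds, other anchors than Dbp, and leaving out each mouse. The fits without the 3 mice were added after seeing the data. Named genes are the 10 clock genes, called genes of the other lists (at most 3 of a list in a comparison), the 8 genes at either end of r with Dbp, and Atxn1. Clock, Fkbp5, Zbtb16, Fos, Fosb, Dusp1 and 1 gene for each list's level were named after their values were seen. The genes, lists and tests were chosen with earlier results of these data known. Each clock gene had 646 or more fragments in each library, so p-values measure the spread between mice more than counting error. Protein sequences and a promoter of Per2 were not used here.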

Additional observations from a re-analysis of the deposited data

Results flagged for a closer look

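Within groups of 4 mice, the lowest or highest mouse was tested for its gap to the others on log2 CPM by Dixon's ratio at the 95% level. Of 66 groups, 3 were singled out, where chance gives about 1 in 20, or 3.3. In WT mice of batch 2, Per2 in mouse 7 was at 4.943 against 5.194 to 5.232 in the other 3 (ratio 0.868). In the same group, Dbp in mouse 5 was at 6.467 against 6.706 to 6.712 (ratio 0.975). In SCA1 S776A mice, Dbp in mouse 3 was at 6.208 against 6.618 to 6.666 (ratio 0.895).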

How the results depend on the processing

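No paired analysis was possible because the labels give no replicate numbers shared between genotypes. The results were recomputed under 1866 settings in all, counting each result and setting once, and 1755 values kept their direction and their side of the threshold. The number of clock genes called in each comparison was the same under every alternative and with each mouse left out (1 between the batches, 0 elsewhere), the fits without the 3 mice included.

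The measures of joint variation depended on which mice entered. Without the 3 mice, the clock genes with a called slope on Dbp went from 6 to 0, the median absolute r from 0.771 to 0.503, and the median SD from 0.318 to 0.208. The median SD was 0.205 in batch 2 alone and 0.163 in WT alone. The r with Dbp turned negative for Nr1d2 (-0.600 in batch 2, -0.211 in WT, -0.128 without the 3 mice), Per2 (-0.762 in WT, -0.243 without the 3 mice) and Per1 (-0.583 in WT).

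Changes of sign in log2 fold changes were all of changes that were not called. Without the 3 mice these were Nr1d2 (0.0826), Arntl (-0.201) and Ciart (0.176) in SCA1 mice. In S776A double mice they were Per1 (0.187), Per3 (0.0600), Nr1d2 (0.137), Arntl (-0.196), Ciart (0.038), Tef (0.0443) and Hlf (0.0577). Dbp in SCA1 S776A against SCA1 (-0.0472) and Per2 in S776A double against SCA1 S776A (0.28) also changed sign. Without a batch term they were Per3 (0.165) and Ciart (0.0257) in SCA1, Hlf (-0.125) in SCA1 S776A, Per3 (0.0468) in S776A double, and Ciart (-0.0409) and Hlf (0.0987) in WT S776A homozygous mice. Per1 in SCA1, at 0.000792 in all mice, went to -0.00580 without a filter, -0.00105 with a CPM filter, -0.000117 in 1 batch, -0.00749 with only the groups compared, -0.000324 after ComBat-seq and -0.00392 with stranded counts. Dbp between batches went to -0.00379 with the CPM filter.

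Leaving out each mouse in turn turned the sign of the following changes, none of them called. In WT S776A homozygous mice these were Ciart (-0.14 to 0.129), Dbp (-0.0924 to 0.128), Hlf (-0.0993 to 0.0046), Per3 (-0.152 to 0.0534) and Tef (-0.0453 to 0.166). In S776A double against SCA1 this was Per2 (-0.41 to 0.476). In S776A double mice this was Per2 (-0.156 to 0.729). In SCA1 mice these were Arntl (-0.206 to 0.127), Ciart (-0.206 to 0.17), Nr1d2 (-0.148 to 0.0768) and Per1 (-0.0859 to 0.135). In SCA1 S776A against SCA1 this was Dbp (-0.0414 to 0.343). In SCA1 S776A mice these were Dbp (-0.152 to 0.0343), Hlf (-0.0831 to 0.073) and Per3 (-0.0195 to 0.118). In WT of batch 2 against WT of batch 1 these were Arntl (-0.0936 to 0.0297), Dbp (-0.0453 to 0.13), Per1 (-0.198 to 0.0678) and Tef (-0.133 to 0.0285). At this depth the number of mice, not counting error, sets the precision.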
